A study of Mus musculus with 4 samples.

Results

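Transcripts of the respiratory chain and ATP synthase were described in single microglia, the resident macrophages of the brain, of adult mice with and without Trem2 and with and without chronic demyelination. The genes were chosen by symbol alone: every gene of the table whose symbol begins with Nduf, Uqcr, Sdha to Sdhd, Cox4 to Cox8, Atp5, mt-Nd, mt-Co, mt-Cytb or mt-Atp. This gave 108 of the 12800 genes, of which 82 encode nuclear subunits of the 5 complexes, 13 are the protein-coding genes of mitochondrial DNA, 12 are assembly factors of complex I or II, and 1, Atp5s, is a related factor. No measured value entered the choice.

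There were 4 groups, each with 1 library of microglia pooled from 2 male mice of 12 to 14 months. Mice of genotype Trem2 -/-, Trem2 +/- and Trem2 +/+ (the knockout, heterozygote and WT on cuprizone) ate 0.2% cuprizone for 12 weeks, and a last group of Trem2 +/+ mice ate control diet for 12 weeks. The labels name neither the Trem2 allele nor the strain. Cells were sorted as live CD11b+ CD45low from dissociated hemibrains, so a group stands for 1 pooled cell suspension, and no difference below has a replicate check.

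The respiratory chain passes electrons from NADH (complex I) and succinate (complex II) through complex III and cytochrome c to oxygen (complex IV), and pumps protons that drive ATP synthase (complex V). Complexes I, III, IV and V are assembled from subunits encoded in both genomes, whereas all subunits of complex II are nuclear. Complex IV holds copper, and cuprizone, which kills oligodendrocytes and strips myelin, is a copper chelator. Trem2 encodes a lipid-sensing receptor of microglia.

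Values are unique molecular identifiers (UMIs, 1 for each captured transcript) summed per library over the authors' clusters 01, 02, 04, 05, 06 and 08 and divided by all UMIs of the same cells, as counts per 1000000 (CPM). These clusters held 753 of 885 knockout cells, 695 of 802 heterozygote cells, 663 of 765 WT cuprizone cells and 479 of 571 control-diet cells, with 6514310, 6552603, 6175520 and 3638474 UMIs. Cells were shallower on control diet, with a median of 4717 UMIs against 6061 to 6849 in the 3 cuprizone libraries. All 9 microglia markers were detected in every pooled library, at 20445 to 24830 CPM in sum. Markers of neutrophils, 7 genes, summed to 634 CPM in the knockout, 1744 CPM in the heterozygote, 47.1 CPM in WT on cuprizone and 0 UMIs on control diet, and their part in the results was not tested. Marker sums ran from 152 to 244 CPM for border-associated macrophages, 114 to 180 CPM for oligodendrocytes, 108 to 209 CPM for choroid plexus, 16.7 to 33.2 CPM for endothelium, 6.96 to 11.8 CPM for astrocytes and 5.77 to 36.5 CPM for monocytes over the 4 libraries, and T or NK cell markers had at most 5 UMIs. Trem2 itself stood at 520 CPM in the knockout, 1763 CPM in the heterozygote, 2939 CPM in WT on cuprizone and 3132 CPM on control diet, but a 3′ tag outside the deleted part would not report the loss. Libraries shared 8 barcodes, carried by 16 cells.

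A gene is called higher or lower where its CPM in the first library is at least 25% above or 20% below that in the second, its 95% interval excludes 1 and the 2 libraries hold at least 200 of its UMIs. Intervals are exact (Clopper-Pearson for ratios, Poisson for levels) and cover counting error only. The 3 comparisons all use the WT cuprizone library, so their results are not independent of each other.

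The sequences below show what can and cannot be separated in these genes. The open reading frames of mt-Atp8 and mt-Atp6, the mitochondrial subunits of complex V, lie on 1 transcript and overlap by 43 bases at chrM:7927-7969 (GRCm38, plus strand). The overlap is printed because reads there belong to either gene.

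mt-Atp8 and mt-Atp6 overlap: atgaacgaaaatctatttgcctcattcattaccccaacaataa

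mt-Nd4l and mt-Nd4 overlap likewise, by 7 bases at chrM:10167-10173. Counts of these 4 genes are therefore uncertain as to how the authors' counting shared them out.

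Promoters are shown for Cox8a, Uqcrh and Atp5k, the nuclear genes with an entry that were called for cuprizone over control diet. Cox7a2l is added as the nuclear subunit whose interval lay farthest above 1 in the knockout. The promoter of Cox6a2, called in the heterozygote, is not shown. Each is the RefSeq window (GRCm38.p6) of 250 bases before to 50 after the transcript start, on the gene's own minus strand. Capitals mark matches, on either strand, to letters bound by known regulators of these genes: GCGCATGCG for NRF1, CCGGAAG for ETS factors such as GABPA, ATGGCGG for YY1 and AAGGTCA for oestrogen-related receptors.

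Cox8a (chr19:7217567-7217866): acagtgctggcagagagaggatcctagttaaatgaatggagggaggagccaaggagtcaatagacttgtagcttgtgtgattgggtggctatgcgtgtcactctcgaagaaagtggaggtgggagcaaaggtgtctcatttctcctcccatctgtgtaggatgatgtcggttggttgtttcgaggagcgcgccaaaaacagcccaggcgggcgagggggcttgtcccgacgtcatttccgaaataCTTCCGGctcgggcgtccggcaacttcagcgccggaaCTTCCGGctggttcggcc

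Uqcrh (chr4:116075021-116075320): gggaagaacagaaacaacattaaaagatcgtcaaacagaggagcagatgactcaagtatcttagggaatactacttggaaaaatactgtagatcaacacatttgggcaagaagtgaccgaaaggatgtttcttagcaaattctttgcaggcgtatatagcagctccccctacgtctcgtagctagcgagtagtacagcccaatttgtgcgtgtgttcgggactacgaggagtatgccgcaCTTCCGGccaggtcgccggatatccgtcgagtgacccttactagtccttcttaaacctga

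Atp5k (chr5:108434350-108434649): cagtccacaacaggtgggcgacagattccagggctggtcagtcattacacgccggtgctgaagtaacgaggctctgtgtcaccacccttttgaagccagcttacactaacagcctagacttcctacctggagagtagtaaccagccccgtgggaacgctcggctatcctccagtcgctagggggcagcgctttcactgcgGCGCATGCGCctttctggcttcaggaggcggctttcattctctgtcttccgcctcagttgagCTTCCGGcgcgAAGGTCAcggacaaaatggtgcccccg

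Cox7a2l (chr17:83514284-83514583): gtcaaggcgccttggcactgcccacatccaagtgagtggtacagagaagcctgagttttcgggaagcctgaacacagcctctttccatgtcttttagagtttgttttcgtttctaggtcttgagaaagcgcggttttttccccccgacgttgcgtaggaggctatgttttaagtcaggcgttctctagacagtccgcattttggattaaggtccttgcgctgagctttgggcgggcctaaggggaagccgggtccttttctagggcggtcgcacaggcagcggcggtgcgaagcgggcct

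The Cox8a window held the ETS letters at 2 places, Uqcrh at 1, and Atp5k held the ETS letters, the receptor letters and the NRF1 letters, the last on both strands over bases that overlap. None of the 4 motifs was found in the Cox7a2l window. Of 82 nuclear subunit genes 67 had an entry, with 72 windows. The NRF1 letters were in 11.1% of these windows, against 2.35% of the 21263 windows of protein-coding genes and 1.75% of all 32851 windows. The ETS letters were in 22.2%, against 11.6% and 8.86%. The YY1 letters were in 15.3%, against 5.25% and 4.06%, and the receptor letters in 11.1%, against 4.08% and 4.72%. A match is a description of the letters, not a bound site.

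The first comparison was chronic demyelination against control diet in WT microglia. Transcripts of the respiratory chain made up more of the RNA on cuprizone, in both genomes. Nuclear subunits summed to 17658 CPM (95% Poisson interval 17553 to 17763) on cuprizone and 15855 CPM (15726 to 15985) on control diet, a ratio of 1.11 (1.10 to 1.13). The 13 mitochondrially encoded genes summed to 15481 CPM on cuprizone and 12804 CPM on control diet, a ratio of 1.21 (1.20 to 1.22). Of 96 members past 200 UMIs, 6 were called higher, where 5.37% of the 5123 genes tested were, and 1 was called lower, where 13.3% were. The ratio lay above 1 for 76 of these 96 members, against 32.7% of all genes. Among genes with 2000 UMIs it lay above 1 for 40 of 41 members, against 49.2% of 666 genes. The median log2 ratio was 0.12 over nuclear subunits and 0.21 over mitochondrially encoded genes past 200 UMIs, beside -0.10 over all genes. With library totals scaled by the trimmed mean of M-values (TMM) the median of all genes was 0.02, the calls over all genes were 533 higher and 264 lower in place of 275 and 683, and 30 members were called higher and 0 lower. The number of members called higher was 22 without cluster 02, where the calls over all genes were 305 higher and 657 lower. It was 12 without the deepest 5% of cells, where the calls over all genes were 261 higher and 626 lower.

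The ratio of the sums depended on which cells were weighed. Clusters 02 and 04 are rich in the transcripts, as described below. Cluster 04 held 122 of the 663 WT cells on cuprizone and 6 of the 479 cells on control diet. Cluster 02 held 146 and 77 of these cells, but the sums weigh UMIs and not cells. Without cluster 02 the log2 ratios were larger, at 0.204 for nuclear and 0.322 for mitochondrially encoded sums, against 0.155 and 0.274 with it. The part of cluster 04 was not tested. Within clusters the nuclear ratio lay between 0.965 and 1.10 and was above 1 in 5 of 6. The mitochondrially encoded ratio lay between 1.01 and 1.14 and was above 1 in 6 of 6. Both pooled ratios were thus larger than the ratio in each of the 6 clusters, and with equal weight for each cluster they were 1.04 and 1.08. The clusters share their libraries and are not replicates.

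By complex, the nuclear sums stood at 5777 CPM on cuprizone and 5376 CPM on control diet for complex I, 443 and 422 CPM for complex II, 1841 and 1646 CPM for complex III, 5161 and 4438 CPM for complex IV, and 4435 and 3973 CPM for complex V. Complex IV, cytochrome c oxidase, had the largest nuclear ratio, 1.16 (1.14 to 1.19), and complex II the smallest, 1.05 (0.986 to 1.12), the only 1 of the 5 whose interval held 1. Within the 6 clusters the nuclear ratio was above 1 in 4 for complexes I, III and V, in 6 for complex II and in 5 for complex IV. For complex III it ran from 0.847 to 1.16, with 1 interval above 1 and 1 below. All 13 nuclear complex IV members past 200 UMIs and all 4 of complex II had ratios above 1, against 27 of 36 for complex I. Assembly factors summed to 344 CPM on cuprizone and 360 CPM on control diet, a ratio of 0.956 (0.892 to 1.03). Of 7 past 200 UMIs, 2 had a ratio above 1, against 32.7% of all genes. Their median log2 ratio was -0.10, the same as over all genes, so they stood close to the table as a whole.

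**Figure D1:**
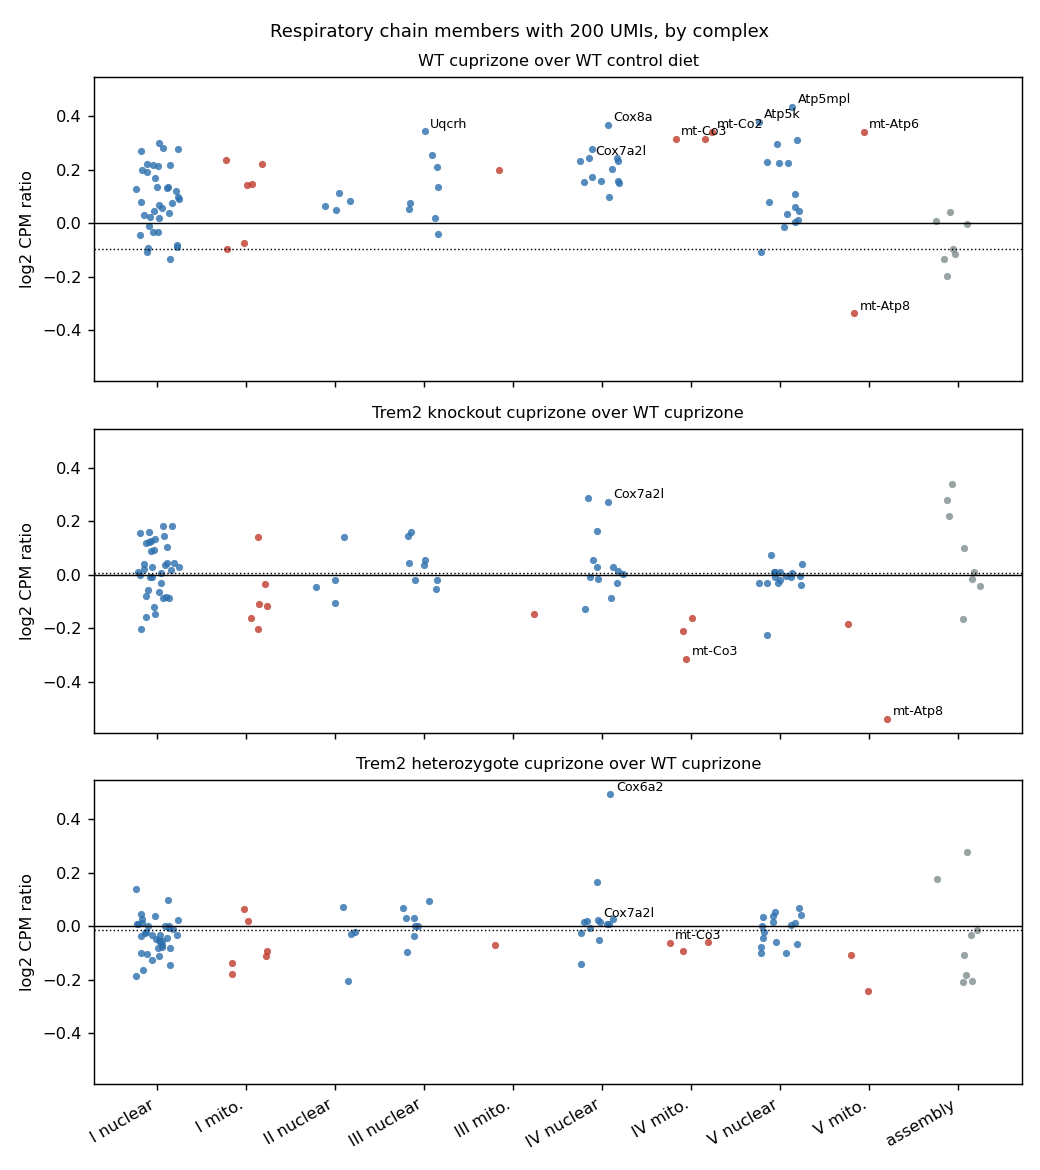
Each point is 1 member with at least 200 UMIs over both libraries, with its log2 CPM ratio on the vertical axis and its complex on the horizontal axis (blue nuclear subunits, red mitochondrially encoded genes, grey assembly factors). The dotted line is the median of all genes with 200 UMIs, -0.10, 0.01 and -0.01 from top to bottom. The red points lie mostly above 0 for cuprizone over control diet and mostly below 0 for knockout over WT on cuprizone, where the blue points spread around 0. Named points are called genes, Cox7a2l and mt-Co3.

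The genes called higher came from 3 complexes. Cox8a, a small structural subunit of complex IV, had 691 CPM on cuprizone against 536 CPM on control diet in WT mice, a ratio of 1.29 (1.22 to 1.36), with 651 CPM in the knockout and 699 CPM in the heterozygote. All 3 cuprizone libraries thus stood above the control-diet library. Uqcrh, the hinge protein of complex III, had 469 CPM in the knockout, 439 CPM in the heterozygote, 419 CPM in WT on cuprizone and 330 CPM on control diet, with a WT ratio of 1.27 (1.18 to 1.36). In complex V, Atp5mpl, a small proteolipid subunit, had 221, 215, 227 and 168 CPM in the same order of groups, with a WT ratio of 1.35 (1.23 to 1.49). Atp5k, the e subunit of ATP synthase, had 193, 192, 191 and 147 CPM, with a WT ratio of 1.30 (1.17 to 1.44). For these 4 genes the lowest library was control diet. They were picked as higher in WT on cuprizone than in this same library, so its low place was partly set by the choice. By cluster, the WT ratio was above 1 in 5 of 6 for Cox8a (0.929 to 1.33). It was above 1 in 4 of 6 for Uqcrh (0.817 to 1.30) and for Atp5mpl (0.881 to 1.94).

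Most other nuclear subunits differed by less than the size rule. Cox4i1, the regulatory subunit of complex IV and the nuclear member with the most UMIs, had a WT ratio of 1.17 (1.12 to 1.23), Cox7c 1.18 (1.11 to 1.26) and Cox6b1 1.12 (1.05 to 1.19). Atp5l, the g subunit, had a ratio of 1.24 (1.17 to 1.32), just under the rule, and Atp5e, the epsilon subunit, 1.23 (1.14 to 1.32). In complex I, the accessory subunit Ndufa2 had 1.21 (1.13 to 1.31), Ndufa13 1.10 (1.02 to 1.18) and Ndufc2 1.06 (0.976 to 1.14). Of further large subunits, Atp5b, the beta subunit of ATP synthase, had 1.08 (1.01 to 1.16), Atp5a1, the alpha subunit, 1.004 (0.924 to 1.09), Ndufs1, the large iron-sulfur subunit of complex I, 0.939 (0.728 to 1.22) and Sdha, the flavoprotein of complex II, 1.04 (0.913 to 1.18). The interval held 1 for the last 3. Of the 77 nuclear subunits past 200 UMIs, 36 had an interval above 1 and 0 had one below. Of all 5123 genes past 200 UMIs, 519 had an interval above 1 and 1192 had one below. Intervals narrow with UMIs, and these transcripts are abundant. With 2000 UMIs the counts were 24 and 0 of 33 nuclear subunits, against 251 and 249 of 666 genes.

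Over the pool, the mitochondrially encoded sum was higher on cuprizone for each complex in the same comparison. Within the 6 clusters the complex I sum had a ratio above 1 in 3 and below 1 in 3 (0.937 to 1.10), with 1 interval below 1. The ratio was above 1 in 5 clusters for complexes III and V and in 6 for complex IV. The catalytic core of complex IV, mt-Co1, mt-Co2 and mt-Co3, had ratios of 1.24 (1.21 to 1.28), 1.27 (1.22 to 1.32) and 1.24 (1.21 to 1.28). mt-Atp6, the proton channel subunit a of complex V, had 3258 CPM in the knockout, 3438 CPM in the heterozygote, 3705 CPM in WT on cuprizone and 2926 CPM on control diet, with a WT ratio of 1.27 (1.24 to 1.30). mt-Cytb, cytochrome b of complex III, had a ratio of 1.15 (1.11 to 1.19). Of the complex I genes, mt-Nd1 had 1.18 (1.14 to 1.22), mt-Nd4 1.11 (1.06 to 1.16), mt-Nd2 1.10 (1.04 to 1.17) and mt-Nd5 1.17 (1.01 to 1.34). With equal weight for each cluster mt-Nd4 was at 0.992, and in cells of 4000 to 10000 UMIs mt-Nd5 was at 0.913. The intervals of mt-Nd3, 0.951 (0.851 to 1.06), and mt-Nd4l, 0.934 (0.801 to 1.09), held 1.

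mt-Atp8, which shares its transcript with mt-Atp6, stood apart. It had 24.9 CPM in the knockout, 30.5 CPM in the heterozygote, 36.1 CPM in WT on cuprizone and 45.6 CPM on control diet. The WT ratio was 0.791 (0.645 to 0.974), called lower, while that of mt-Atp6 was called higher. How reads of the overlap were shared out between the neighbours is not known, and the call was lost under 5 of the alternative settings. mt-Nd6, the single protein-coding gene on the light strand of mitochondrial DNA, had 2.92, 3.51, 2.75 and 1.92 CPM, too few UMIs for a call.

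**Figure D2:**
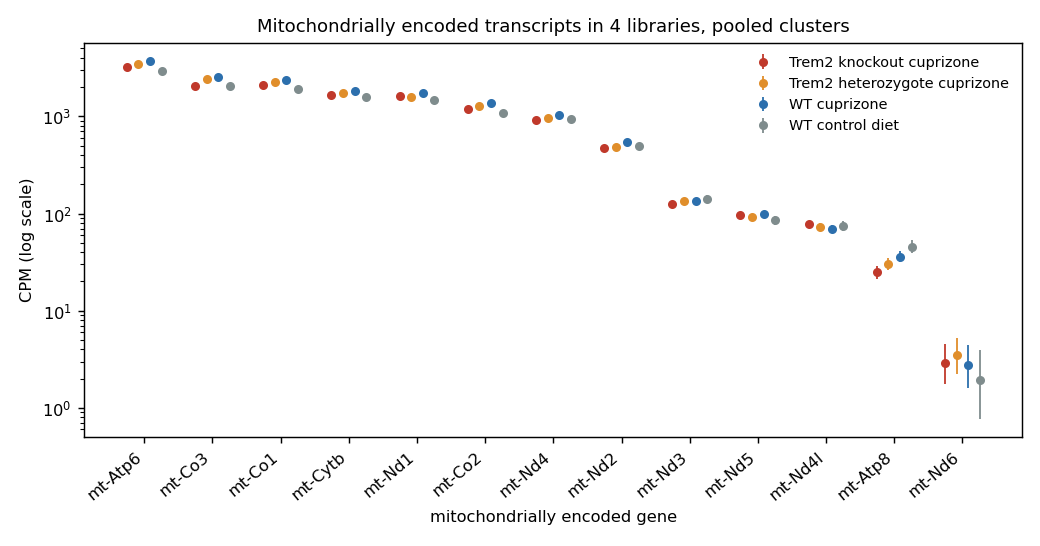
CPM on a log scale of the 13 mitochondrially encoded genes in the 4 libraries, over the 6 pooled clusters, with bars for the exact 95% Poisson interval (counting error only). From mt-Atp6 to mt-Nd2 the WT cuprizone library is the highest of the 4 for every gene, while mt-Atp8 is highest on control diet at 45.6 CPM and lowest in the knockout at 24.9 CPM.

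The next comparison was the Trem2 knockout against WT, both on cuprizone. Here the 2 genomes parted. Nuclear subunits summed to 17974 CPM in the knockout and 17658 CPM in WT, a ratio of 1.02 (1.01 to 1.03), whereas mitochondrially encoded genes summed to 13592 CPM in the knockout and 15481 CPM in WT, a ratio of 0.878 (0.870 to 0.886). Of 97 members past 200 UMIs, 0 were called higher, where 4.56% of 5790 genes were, and 1, mt-Atp8, was called lower, where 6.27% were. Ratios lay above 1 for 42 of 77 nuclear subunits and for 1 of 12 mitochondrially encoded genes, against 51.6% of all genes. With 2000 UMIs they lay above 1 for 24 of 47 nuclear subunits and for 0 of 8 mitochondrially encoded genes, against 56.3% of 826 genes. The median log2 ratio was -0.16 over the 12 mitochondrially encoded genes and 0.01 over the 77 nuclear subunits and over all genes.

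The mitochondrially encoded sum was lower in the knockout for each complex. It was 3305 CPM in the knockout and 3624 CPM in WT for complex I (ratio 0.912), 1651 and 1830 CPM for mt-Cytb of complex III (0.902), 5354 and 6285 CPM for complex IV (0.852), and 3282 and 3742 CPM for complex V (0.877). mt-Co3, subunit 3 of complex IV, had 2048 CPM in the knockout, 2438 CPM in the heterozygote, 2545 CPM in WT on cuprizone and 2045 CPM on control diet. Its ratio of knockout to WT was 0.805 (0.786 to 0.824), just outside the size rule, and the knockout level was that of the control-diet library. mt-Co2 had 1186 CPM in the knockout and 1370 CPM in WT, a ratio of 0.865 (0.839 to 0.893), and mt-Co1 2120 and 2369 CPM, a ratio of 0.895 (0.874 to 0.916). mt-Atp6 had a ratio of 0.879 (0.863 to 0.896), mt-Nd2 0.870 (0.828 to 0.913), mt-Nd4 0.894 (0.863 to 0.926) and mt-Nd1 0.923 (0.898 to 0.948). mt-Nd3, mt-Nd4l and mt-Nd5 had intervals that held 1. mt-Atp8 had the lowest ratio, 0.689 (0.559 to 0.847).

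By cluster, the mitochondrially encoded ratio of knockout to WT lay between 0.731 and 0.981, below 1 in 6 of 6 clusters and with an interval below 1 in 5 of them. It was lowest in cluster 04, where the knockout had only 13 cells, and in cluster 08, 0.781 (0.759 to 0.804). Cluster 06 had 0.981 (0.946 to 1.02). The nuclear ratio was above 1 in 6 of 6 clusters, from 1.02 to 1.11, although the pooled ratio was only 1.02. In cluster 07, outside the pool, the mitochondrially encoded ratio was 1.01 (0.987 to 1.04). mt-Co3 was lower in the knockout in 5 of 6 clusters, with the exception of cluster 06, at 1.0004 (0.916 to 1.09). With equal weight for each cluster the sums gave 0.855 for mitochondrially encoded and 1.06 for nuclear genes, and without cluster 02 the mitochondrially encoded ratio was 0.811. Without cluster 08, which held 175 knockout and 76 WT cells, the nuclear ratio was 1.002. With all deposited cells, which adds clusters 03 and 07, it was 0.970, and the part of each was not tested.

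The ratio of nuclear to mitochondrially encoded UMIs does not depend on the denominator of CPM. It was 1.32 (1.31 to 1.33) in the knockout, 1.21 (1.20 to 1.22) in the heterozygote, 1.14 (1.13 to 1.15) in WT on cuprizone and 1.24 (1.22 to 1.254) on control diet. The knockout was the highest and WT on cuprizone the lowest of the 4. In each of the 6 clusters the knockout ratio lay above that of WT on cuprizone, from 1.15 against 1.0045 in cluster 02 to 1.74 against 1.23 in cluster 04.

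**Figure D3:**
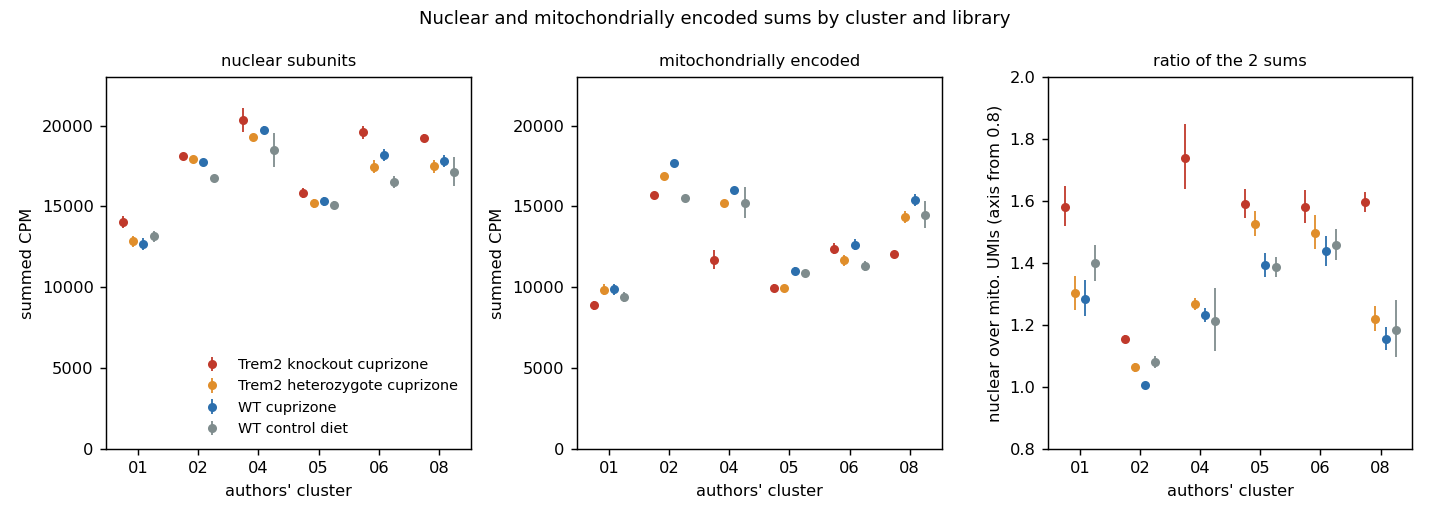
Summed CPM of nuclear subunits (left) and mitochondrially encoded genes (middle), and the ratio of the 2 sums of UMIs (right, axis from 0.8), for each of the 6 pooled clusters and each library, with exact 95% intervals that cover counting error only. The knockout points lie lowest in the middle panel in clusters 01, 04 and 08 and highest in the right panel in all 6 clusters.

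Nuclear subunits with the clearest differences in the knockout were Cox7a2l and Cox4i1. Cox7a2l, also known as SCAF1, which links complexes III and IV into supercomplexes, had 526 CPM in the knockout, 442 CPM in the heterozygote, 435 CPM in WT on cuprizone and 368 CPM on control diet. The ratio of knockout to WT was 1.21 (1.15 to 1.27), under the size rule, and above 1 in 6 of 6 clusters (1.04 to 1.31). Cox4i1 had 1092, 989, 976 and 831 CPM in the same order, with a knockout ratio of 1.12 (1.08 to 1.16) and a ratio above 1 in 6 of 6 clusters. Uqcrh had 1.12 (1.06 to 1.18), Ndufa6 1.14 (1.06 to 1.21) and Ndufa1 1.13 (1.05 to 1.22), the last 2 being accessory subunits of complex I. By cluster, the ratio was above 1 in 4 of 6 for Uqcrh, 6 of 6 for Ndufa6 and 5 of 6 for Ndufa1. The lowest cluster ratios were 0.888, 1.006 and 0.906. Among these 5 genes the knockout library was the highest of the 4. They were picked for a high ratio of knockout to WT on cuprizone, so the high place of the knockout was partly set by the choice.

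Other nuclear members of the knockout were close to WT. Complex V was the closest, with 4429 CPM in the knockout and 4435 CPM in WT, a ratio of 0.999 (0.982 to 1.02), and its members Atp5l, Atp5j, Atp5e and Atp5b lay between 0.995 and 1.03. Complex IV stood at 1.03 (1.02 to 1.05), complex III at 1.04 (1.01 to 1.06), complex I at 1.02 (1.003 to 1.03) and complex II at 0.974 (0.924 to 1.03). Cox8a had a ratio of 0.942 (0.902 to 0.983), which turned to 1.01 with equal weight for each cluster. Its interval lay below 1 in cluster 02 alone of the 6, at 0.913, and its ratio was 1.20 in cluster 01 and 1.07 in cluster 06, with intervals that held 1. Ndufa4, a subunit once placed in complex I and counted here in complex IV, had 0.916 (0.861 to 0.975). Assembly factors summed to 366 CPM in the knockout and 344 CPM in WT, a ratio of 1.06 (1.003 to 1.13). Of 8 past 200 UMIs, 5 had a ratio above 1, against 51.6% of all genes. Among them was Sdhaf1, an assembly factor of complex II, at 1.21 (1.002 to 1.47).

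The third comparison was the Trem2 heterozygote against WT, both on cuprizone. Nuclear subunits summed to 17553.5 CPM in the heterozygote and 17658 CPM in WT, a ratio of 0.994 (0.986 to 1.002), and mitochondrially encoded genes to 14547 and 15481 CPM, a ratio of 0.940 (0.931 to 0.948). The mitochondrially encoded sum of the heterozygote lay between those of the knockout and of WT on cuprizone. Of 97 members past 200 UMIs, 1, Cox6a2, was called higher, where 2.27% of 5820 genes were, and 0 were called lower, where 2.49% were. Ratios lay above 1 for 37 of 77 nuclear subunits and 2 of 12 mitochondrially encoded genes, against 46.1% of all genes. With 2000 UMIs they did for 27 of 46 nuclear subunits and 0 of 8 mitochondrially encoded genes, against 43.1% of 831 genes. By cluster, the mitochondrially encoded ratio was below 1 in 6 of 6, from 0.903 to 0.998, while in cluster 07, outside the pool, it was 1.05 (1.02 to 1.08).

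Of the mitochondrially encoded genes of the heterozygote, mt-Atp8 had a ratio of 0.845 (0.695 to 1.03), mt-Nd2 0.884 (0.841 to 0.928) and mt-Nd1 0.910 (0.886 to 0.935). mt-Atp6 had 0.928 (0.911 to 0.945), mt-Co2 0.938 (0.910 to 0.967), mt-Nd4 0.937 (0.905 to 0.971) and mt-Co3 0.958 (0.937 to 0.979). Of nuclear subunits, Ndufa4 had 0.907 (0.852 to 0.965) and Cox5a, a subunit of complex IV, 1.12 (1.03 to 1.22). Cox7a2l and Cox4i1, the highest in the knockout, had 1.02 (0.963 to 1.07) and 1.01 (0.978 to 1.05) in the heterozygote.

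Across the 4 libraries the nuclear and mitochondrially encoded shares also differed by cluster more than by group. Clusters were made by the authors from the expression of these cells, and 54 members, 9 of them mitochondrially encoded, were among the 4895 genes they kept for this, so the cluster levels are a description. Over all libraries, nuclear subunits summed to 13206 CPM in cluster 01, 17776 in 02, 19490 in 04, 15324 in 05, 17924 in 06 and 18503 in 08. Mitochondrially encoded genes summed to 9476 CPM in cluster 01, 16492 in 02, 15392 in 04, 10486 in 05, 12000 in 06 and 13256 in 08. Cluster 01 was the lowest in both and also the shallowest, with a median of 3387 UMIs per cell, and cluster 02 was the highest in mitochondrially encoded UMIs and the deepest, with 16984.5. Cluster 04 was the highest in nuclear subunits at a median of 10695 UMIs. Cluster 06, with a median of only 3541 UMIs per cell, had a nuclear sum near that of cluster 02.

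Per cell, the median share of nuclear subunits was 1.74% of UMIs in the knockout, 1.66% in the heterozygote, 1.67% in WT on cuprizone and 1.52% on control diet. The median share of mitochondrially encoded genes was 1.125%, 1.22%, 1.29% and 1.09% in the same order. Over the cells of 1 library, Spearman's rho between depth and the nuclear share was 0.238 to 0.406 and between depth and the mitochondrially encoded share 0.336 to 0.435 (479 to 753 cells). These cells share library and clusters, and the relations within clusters were smaller in most. Among all deposited cells, the highest mitochondrially encoded share of a cell was 2.86% in the knockout, 3.135% in the heterozygote, 3.13% in WT on cuprizone and 2.65% on control diet. Whether cells above some share had been removed is not given in the sources used here. In cells of 4000 to 10000 UMIs, the ratio of knockout to WT was 0.832 for mitochondrially encoded and 1.07 for nuclear sums, and that of cuprizone to control diet 1.17 and 1.08.

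Several nuclear subunits have tissue isoforms, and in microglia the widespread form made up nearly all counts. Cox8a, Cox6b1, Cox7a2 and Cox4i1 stood at 240.2 CPM or more in every library, while their counterparts Cox6b2, Cox7a1, Cox4i2 and Cox8b, known from testis, muscle, lung and muscle, and Ndufa4l2, known from hypoxic cells, had at most 3.89 CPM. Cox6b2 had 1.23 CPM in the knockout and 3.89 CPM in WT on cuprizone, a ratio of 0.316 (0.123 to 0.727) from too few UMIs for a call. Of the 3 genes for the same c-ring subunit of ATP synthase, Atp5g2 had 382, 380, 363 and 310 CPM in the knockout, the heterozygote, WT on cuprizone and control diet, Atp5g1 232, 226, 237 and 231 CPM, and Atp5g3 79.1, 86.2, 92.5 and 91.8 CPM. Their encoded c subunits are the same in the mature protein. For cuprizone over control diet Atp5g2 had a ratio of 1.17 (1.09 to 1.26), while Atp5g1 was at 1.02 (0.940 to 1.12) and Atp5g3, lower in the knockout at 0.855 (0.758 to 0.965), at 1.01 (0.878 to 1.16). With equal weight for each cluster the ratio of Atp5g2 on cuprizone was 0.996. Whether the 3 differ from each other was not tested.

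Cox6a2, the heart and skeletal muscle form of subunit 6a, was the exception among the tissue isoforms. It had 49.1 CPM in the knockout, 56.8 CPM in the heterozygote, 40.3 CPM in WT on cuprizone and 33.3 CPM on control diet, beside 432, 430, 428 and 383 CPM of its widespread counterpart Cox6a1. Its counts lay mainly in clusters 02, 04 and 08, with 59.2 CPM in the knockout, 72.5 CPM in the heterozygote, 50.5 CPM in WT on cuprizone and 41.6 CPM on control diet. In clusters 01, 05 and 06 it had 18.1, 11.8, 10.7 and 26.6 CPM in the same order. In WT on cuprizone it reached 98.8 CPM (83.1 to 117) in cluster 04 and 7.86 CPM (2.88 to 17.1) in cluster 05. In cluster 08 it had 104 CPM (87.0 to 123) in the knockout and 28.6 CPM (15.2 to 48.8) in WT on cuprizone. The ratio of heterozygote to WT, the only called member of that comparison, was 1.41 (1.20 to 1.66). One heterozygote cell held 29 of its 372 UMIs, and without that cell the ratio was 1.30 (1.10 to 1.54). The call was lost without cluster 02, at a ratio of 1.18, and in cells of 4000 to 10000 UMIs, at 1.07. In cluster 04, where the gene was highest in both libraries, the ratio of heterozygote to WT was 1.03 (0.820 to 1.29). The ratio of knockout to WT was 1.22 (1.03 to 1.44) over the pool and 0.869 without cluster 08.

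**Figure D4:**
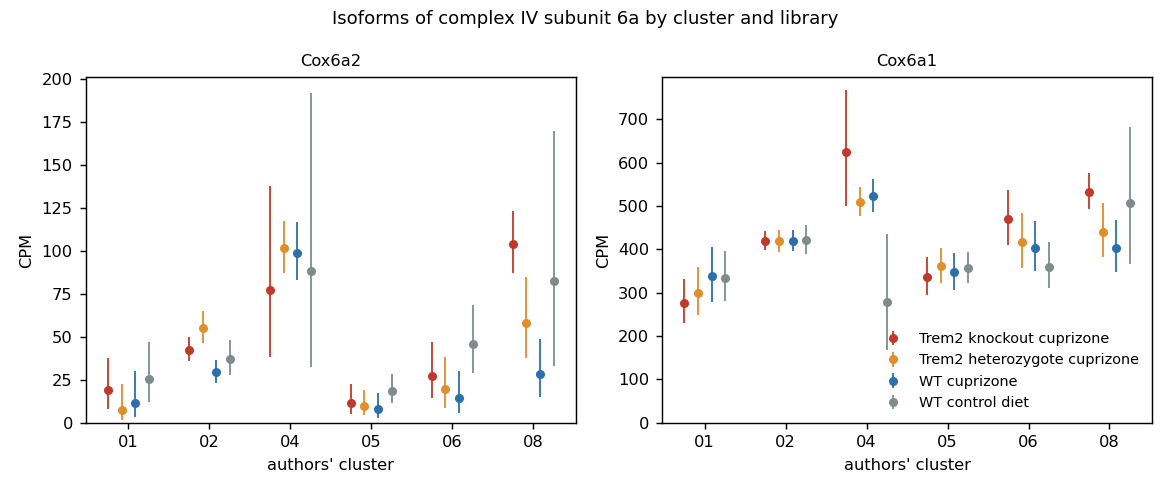
CPM of Cox6a2 (left) and Cox6a1 (right) in each pooled cluster and library, with exact 95% Poisson intervals (counting error only). Cox6a2 is at 77.1 to 102 CPM in cluster 04 and at 7.86 to 18.6 CPM in cluster 05 over the 4 libraries, while Cox6a1 is at 277.5 CPM or more everywhere. Cluster 04 holds 13 knockout and 6 control-diet cells, and cluster 08 holds 13 control-diet cells.

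Neighbouring mitochondrial pathways were read from gene lists with the same size rule and are given beside the shares of all genes above. Cytochrome c (Cycs) and cytochrome c1 of complex III (Cyc1, which the symbol rule leaves out) had 0 of 2 calls in all 3 comparisons. Cycs had 147 CPM in the knockout, 141 CPM in the heterozygote, 150 CPM in WT on cuprizone and 142 CPM on control diet. Of the 8 genes of copper delivery, 6 passed 200 UMIs and 0 were called in any comparison. Atox1, the cytosolic copper chaperone, had 443, 494, 507 and 416 CPM in the same order, with a ratio of cuprizone to control diet of 1.22 (1.15 to 1.30) and of knockout to WT of 0.874 (0.831 to 0.920). Cox17, which hands copper to complex IV assembly, had 189, 196, 201 and 174 CPM and a WT ratio of 1.15 (1.05 to 1.27). Slc31a1, the copper importer, had 0.890 (0.718 to 1.11), so a difference was not detectable at this depth. The other copper genes, Ccs, Cox11, Cox19, Sco1 and Sco2, also had WT ratios below 1, with intervals that held 1.

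Of the other assembly factors of complex IV, 9 of the 10 listed were in the table and 5 passed 200 UMIs. Cox20, a chaperone of newly made subunit 2, was called higher on cuprizone over control diet in WT mice, 86.3 CPM against 68.4 CPM, and Cox16 higher in the knockout than in WT, 34.8 CPM against 26.7 CPM. Over all genes 5.37% and 4.56% were called higher in these comparisons. Of 13 listed regulators of these genes, 12 were in the table, and of the 5 or 6 past 200 UMIs 0 were called in any comparison. The 12 summed to a ratio of 0.967 (0.883 to 1.06) for cuprizone over control diet. It was 0.959 (0.886 to 1.04) for knockout over WT and 0.891 (0.822 to 0.966) for heterozygote over WT. Tfam, the packaging and transcription factor of mitochondrial DNA, had 17.3 CPM in the knockout, 14.5 CPM in the heterozygote, 14.6 CPM in WT on cuprizone and 20.3 CPM on control diet. Ppargc1b, under the minimum with 50 and 52 UMIs, had 0.369 (0.184 to 0.700) in the knockout and 0.419 (0.217 to 0.774) in the heterozygote over WT. Of 14 enzymes of the TCA cycle, all past 200 UMIs, 1 was called: Idh2, the NADP-dependent isocitrate dehydrogenase, lower on cuprizone at 99.4 CPM against 131 CPM on control diet. Over all genes 13.3% were called lower in that comparison. The cycle as a whole had a ratio of 0.976 (0.932 to 1.02) for cuprizone over control diet and 0.999 (0.961 to 1.04) for knockout over WT.

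Of 67 mitochondrial ribosomal protein genes past 200 UMIs, 1 was called higher and 6 lower on cuprizone in WT mice. Over all genes the shares were 5.37% and 13.3%. Of 70 in the knockout, 1 was called higher (Mrpl44) and 0 lower, against 4.56% and 6.27% of all genes. Of 70 in the heterozygote, 0 were called higher and 3 lower (Mrpl34, Mrpl3 and Mrps30), against 2.27% and 2.49%. Their sum was 4247 CPM in the knockout, 4196 CPM in the heterozygote, 4187 CPM in WT on cuprizone and 4246 CPM on control diet. Of 19 genes of protein import 1 was called higher, Tomm7, and 3 lower on cuprizone, 0 and 1 in the knockout, and of 20 in the heterozygote 0 and 1, in both cases Timm23. These counts stand beside the same shares of all genes. Of 7 carriers and channels 0 were called in any comparison. Ucp2, a carrier of the inner membrane, had a ratio of 1.17 (1.08 to 1.26) on cuprizone and 0.906 (0.8504 to 0.966) in the knockout, and Slc25a5, the ADP/ATP carrier, 1.12 (1.07 to 1.16) in the knockout. For cuprizone over control diet the median log2 ratios of these lists lay between -0.14 and 0.07, beside 0.12 for nuclear subunits and -0.10 over all genes. The lowest was copper delivery, and the other lists lay above the median of all genes.

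Outside the pool, cluster 03 held the highest nuclear subunit levels of all. This cluster, 66 cells, had 42464 CPM of nuclear subunits over the 4 libraries. Its choroid plexus markers summed to 70519 CPM against 4368 CPM of the microglia markers. Its 7 neutrophil markers summed to 101640 CPM. Of its cells, 11 had at least 100 UMIs of Ttr, transthyretin, the main secreted protein of choroid plexus epithelium, a limit set after its counts were seen. Nuclear subunits made up 10.2% of the UMIs of these cells in the knockout (2 cells), 2.99% in the heterozygote (1 cell), 9.50% in WT on cuprizone (6 cells) and 12.0% on control diet (2 cells), against 2.14% to 2.37% in the other 55 cells of the cluster and 1.59% to 1.80% in the pool. Of the 82 nuclear subunits, 78 stood above their pooled level in these 11 cells, 2 below (Cox7a2l and Cox6a2) and 2 had 0 UMIs. The median of the 80 ratios was 4.98. Mitochondrially encoded genes made up 0.0461% to 2.515% of the UMIs of such a cell. Cox8b, the muscle form of subunit 8, had 249 of its 262 UMIs in the table in this cluster, all in the Ttr-rich cells. Cox8a was 5.95 times its pooled level in the same cells. Outside cluster 03 no cell had more than 33 Ttr UMIs.

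**Figure D5:**
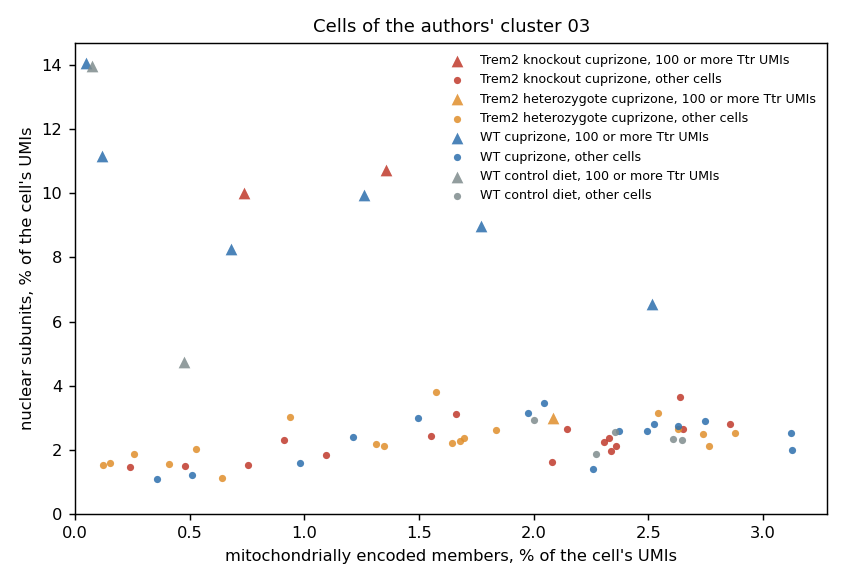
Each point is 1 of the 66 cells of cluster 03, with the percentage of its UMIs from mitochondrially encoded genes on the horizontal axis and from nuclear subunits on the vertical axis. Triangles are the 11 cells with 100 or more Ttr UMIs, of which all but the heterozygote cell lie at 4.72% or more on the vertical axis, while the 55 other cells (dots) lie at 3.79% or less.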

How the data were processed

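Live CD11b+ CD45low brain cells were profiled with the Chromium Single Cell 3′ kit, v2 chemistry, per the labels' protocols. The authors' deposited table gives raw UMI counts for 12800 genes, each with a UMI in at least 8 cells, in 3023 cells. Per the submitters' processing notes the tool was Cell Ranger 2.1.1 and the genome build mm10. The cell clusters are the authors' own, and the sources used here give neither the gene annotation nor any limit on mitochondrial reads. The 3′ kit marks transcript ends, so overlapping genes cannot be fully told apart.

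UMIs were summed per library over 6 of the 8 clusters and scaled by the total (Python 3.11.15, scipy 1.17.1, pandas 2.3.3). Clusters 03 and 07, which hold markers of choroid plexus and neutrophils and of border macrophages, were left out of the pool. Over all libraries, cluster 07 had 16263 CPM of the microglia markers and 2441 CPM of the border macrophage markers. The pooled cluster 04 had 15017 CPM and 348 CPM. With 1 library per group no test was possible, and no p-value or SE is given. A side with 0 UMIs was set to 3 UMIs for a ratio. Named genes were the mitochondrially encoded members, the 4 nuclear members of each complex with the most UMIs, up to 6 members on each side of 1 per comparison whose interval bound lay farthest from 1, and tissue isoforms; others named were chosen after their values were seen. Alternatives were TMM scaling (edgeR 4.0.16), totals without the members, other minimum counts and folds, equal cluster weights, means of per-cell CPM and cells or clusters left out. The members, gene lists and settings were chosen with earlier results of these data known. Gene positions come from GENCODE M21 and promoters from RefSeq.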

Additional observations from a re-analysis of the deposited data

Results flagged for a closer look

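The values given here come from the Ttr-rich cells of cluster 03, outside the pooled clusters, and stood above the level in the pool. Nuclear subunits made up 10.22% of the UMIs of these cells in the knockout, 2.986% in the heterozygote, 9.497% in WT on cuprizone and 11.98% on control diet, beside 1.59% to 1.80% over the pooled cells of the 4 libraries. There were 2, 1, 6 and 2 such cells, so the values describe single cells and not the groups. Cox8b had 57 UMIs in cluster 03 of the knockout, from 2 cells, and 169 UMIs in WT on cuprizone, from 5 cells, beside 7 UMIs in all pooled cells together. On control diet 23 UMIs came from 1 cell, and the heterozygote had 0 UMIs in 20 cells of cluster 03, which allows up to 23.2 CPM (exact Poisson limit). The part of free RNA and of doublets in these cells was not tested, and no doublet caller was run.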

How the results depend on the processing

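No paired analysis was possible because each group has 1 library, and no replicate could be left out for the same reason. Values here are log2 ratios of summed CPM, or counts of members called. For cuprizone over control diet in WT mice (nuclear 0.16, mitochondrially encoded 0.27, 6 higher and 1 lower), every setting kept both directions. The mitochondrially encoded value was 0.39 with TMM scaling, 0.32 without cluster 02, 0.30 without the deepest 5% of cells, 0.24 as a mean of per-cell CPM, 0.23 in cells of 4000 to 10000 UMIs, 0.22 over every deposited cell and 0.10 with equal cluster weights. The nuclear value was 0.27 with TMM scaling, 0.20 without cluster 02, 0.20 over every deposited cell, 0.11 in the depth window and 0.063 with equal weights. Members called higher were 30 with TMM scaling, 22 without cluster 02, 12 without the deepest cells and 0 at 1.5-fold. Over all genes the calls were 533, 305, 261 and 94 in these settings, and 275 in the main one. Members called lower were 0 at 1.5-fold, with TMM scaling, without cluster 02, without cluster 08 and without the deepest cells, and 2 in the depth window and with equal weights. Over all genes these settings gave, in the same order, 99, 264, 657, 636, 626, 223 and 268 lower, and the main one 683. For knockout over WT (0.026 and -0.19, 0 higher and 1 lower), the mitochondrially encoded value stayed below 0, at -0.30 without cluster 02, -0.27 in the depth window, -0.23 with equal weights, -0.23 without the deepest cells, -0.16 over every deposited cell and -0.15 without cluster 08. The nuclear value was 0.096 in the depth window, 0.079 with equal weights, 0.049 as a mean of per-cell CPM and 0.0023 without cluster 08, and it reversed to -0.044 over every deposited cell, where the 2 knockout and 6 WT Ttr-rich cells enter. Members called higher were 2 in the depth window and 1 with equal weights, per-cell means, without cluster 02, without cluster 08 and without the deepest cells. Over all genes these settings gave, in the same order, 112, 282, 288, 211, 348 and 245 higher, and the main one 264. Members called lower were 3 without cluster 02, 2 in the depth window, over every deposited cell, with no minimum and without the deepest cells, and 0 at 1.5-fold. Over all genes these settings gave, in the same order, 256, 170, 388, 791, 319 and 125 lower, and the main one 363. For heterozygote over WT (-0.0085 and -0.090, 1 higher and 0 lower), the mitochondrially encoded value was -0.073 over every deposited cell and -0.071 as a mean of per-cell CPM, and the nuclear value -0.086, -0.021 and, without cluster 02, -0.023. Members called higher were 2 with equal weights and 0 at 1.5-fold, in the depth window and without cluster 02. Over all genes these settings gave, in the same order, 174, 22, 44 and 73 higher, and the main one 132. Of 1290 values of named genes 1116 stayed within the counting interval of the main value, 166 moved out of it and 8 reversed. The sums by complex were not recomputed under these settings. With equal weights mt-Nd4 (-0.012), Atp5g2 (-0.0064), Ndufa1 (-0.19) and Cox7a2 (-0.0093) reversed for cuprizone over control diet and Cox8a (0.014) for knockout over WT. In the depth window mt-Nd5 (-0.13) reversed for cuprizone over control diet and Atp5j (0.0098) for heterozygote over WT, and without cluster 08 Cox6a2 (-0.20) for knockout over WT. The cause of these moves was not tested. The depth window and the settings without cluster 01 or 02 were added after seeing the data. Genes under 200 UMIs, as mt-Nd6 and most tissue isoforms, were not called, although some of their intervals, as that of Cox6b2 for knockout over WT, excluded 1.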

Other observations

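Trem2 lies on chromosome 17 (48346401 to 48354147, GRCm38), and so do 7 nuclear subunits or assembly factors past 200 UMIs, among them Cox7a2l. For knockout over WT on cuprizone, 6 of these 7 had a ratio above 1 (0.999 to 1.21, median log2 0.099), and 41 of the 78 on other chromosomes did (median 0.0050). For heterozygote over WT, 3 of the 7 did (0.881 to 1.02, median -0.031), and 36 of the 78 elsewhere (median -0.013). For cuprizone over control diet, 4 of the 7 and 63 of 77 elsewhere did. The grouping by chromosome was made after the values of Cox7a2l had been seen, and whether the chromosome plays a part was not tested.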
